A study of Canis lupus familiaris with 4 samples.

Results

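Genes that build ribosomes were followed in cultured dog CD8+ T cells with and without lymphoma exosomes. The set held 45 ribosome biogenesis and nucleolar genes, out of 11691 genes measured in every library. They were listed by name, with earlier results of these data known, and found by symbol, and all 45 were present in both deposited tables. They comprise subunits and a regulator of RNA polymerase I (4 genes), proteins of the box C/D (4) and box H/ACA (3) small nucleolar RNPs, nucleolar scaffold and shuttling proteins (5), factors of the small subunit processome and helicases grouped with it (11), late factors of the small subunit (4) and factors of the large subunit (14).

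Ribosomes are assembled mainly in the nucleolus. RNA polymerase I transcribes a long precursor RNA there, small nucleolar RNPs guide its methylation and pseudouridylation, and large sets of processing factors, helicases and GTPases cut and fold it into the small and the large subunit. Activated T cells are known to enlarge their nucleoli and to raise many of these genes before they divide, and MYC is a known activator of much of the set.

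The libraries are messenger RNA of CD8+ T cells from 2 healthy mixed-breed dogs whose ages are not given. Blood mononuclear cells of each dog had been kept for 14 to 20 days with human IL-2 at 2500 IU/mL and 50 µM 2-mercaptoethanol. The CD8+ cells were then purified and held in the same IL-2 and mercaptoethanol, either with exosomes of the dog B cell lymphoma line CLBL-1 or with an equal amount of PBS. Exosomes are small vesicles shed by cells. The design text gives a dose of 50 µg/mL for the sequenced cells, while the sample label lists 50, 100 and 200 µg/mL. Each arm holds 2 libraries, 1 per dog, and the control and exosome library of a dog form a pair. The tables are named for dog N1 (pair 1), a female by the sample labels, and dog N2 (pair 2), a male. The labels give 48 h of exposure throughout, but the columns of pair 1 are headed 24 h and those of pair 2 48 h, so dog, sex and possibly time cannot be told apart between the pairs. With 1 dog per pair, p-values speak for these 4 libraries only. Those of limma lean on the variance of all genes more than on the spread of each gene.

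Recovered depth over the shared genes was 9417298 to 12325953 reads per library. The genes described here held 16 to 14124 reads per library, with a median of 589, and 1 of them, GRWD1, had fewer than 50 reads in a library. All 5 T cell markers searched were present, with the co-receptor gene CD8A at 286 to 488 scaled reads and CD4 at 3.22 to 11.6. Among B cell markers MS4A1 stood at 3.62 to 10.7, but CD79A stood at 852 to 1369 in all libraries, the PBS controls included. Values are scaled read counts, that is, reads divided by 1 factor per library. Paired values are written as control against exosome library, pair 1 before pair 2. No gene lengths were used, so levels are compared between libraries and not between genes.

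Most ribosome biogenesis genes had lower values with exosomes, by a modest amount, and none passed the test singly. Of the 45 genes, 37 were lower in both pairs, against 32.5% of all genes, 2 were higher in both, against 27.8%, and 6 had opposite directions, against 39.7%. Taken singly, pair 1 had 42 lower genes, against 51.8% of all genes, and pair 2 had 38, against 52.9%. The median log2 fold (exosome over control, on log2 of the value plus 1) was -0.43, beside -0.01 over all genes. It was -0.36 in pair 1 and -0.34 in pair 2, where all genes had medians of -0.02 and -0.03. By limma with the pair as a block and Benjamini-Hochberg adjustment over all genes, 0 of the 45 were called at 0.05, against 0.496% of all genes called lower and 0.248% called higher. The smallest adjusted p among them was 0.0627, for MYBBP1A. At an unadjusted p under 0.05, 14 were lower and 0 higher by limma, where all genes gave 9.96% and 5.95%, and edgeR gave 18 and 0, where all genes gave 8.43% and 5.6%. In these bulk libraries fewer cells of a type and less of a transcript per cell cannot be told apart.

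**Figure D1:**
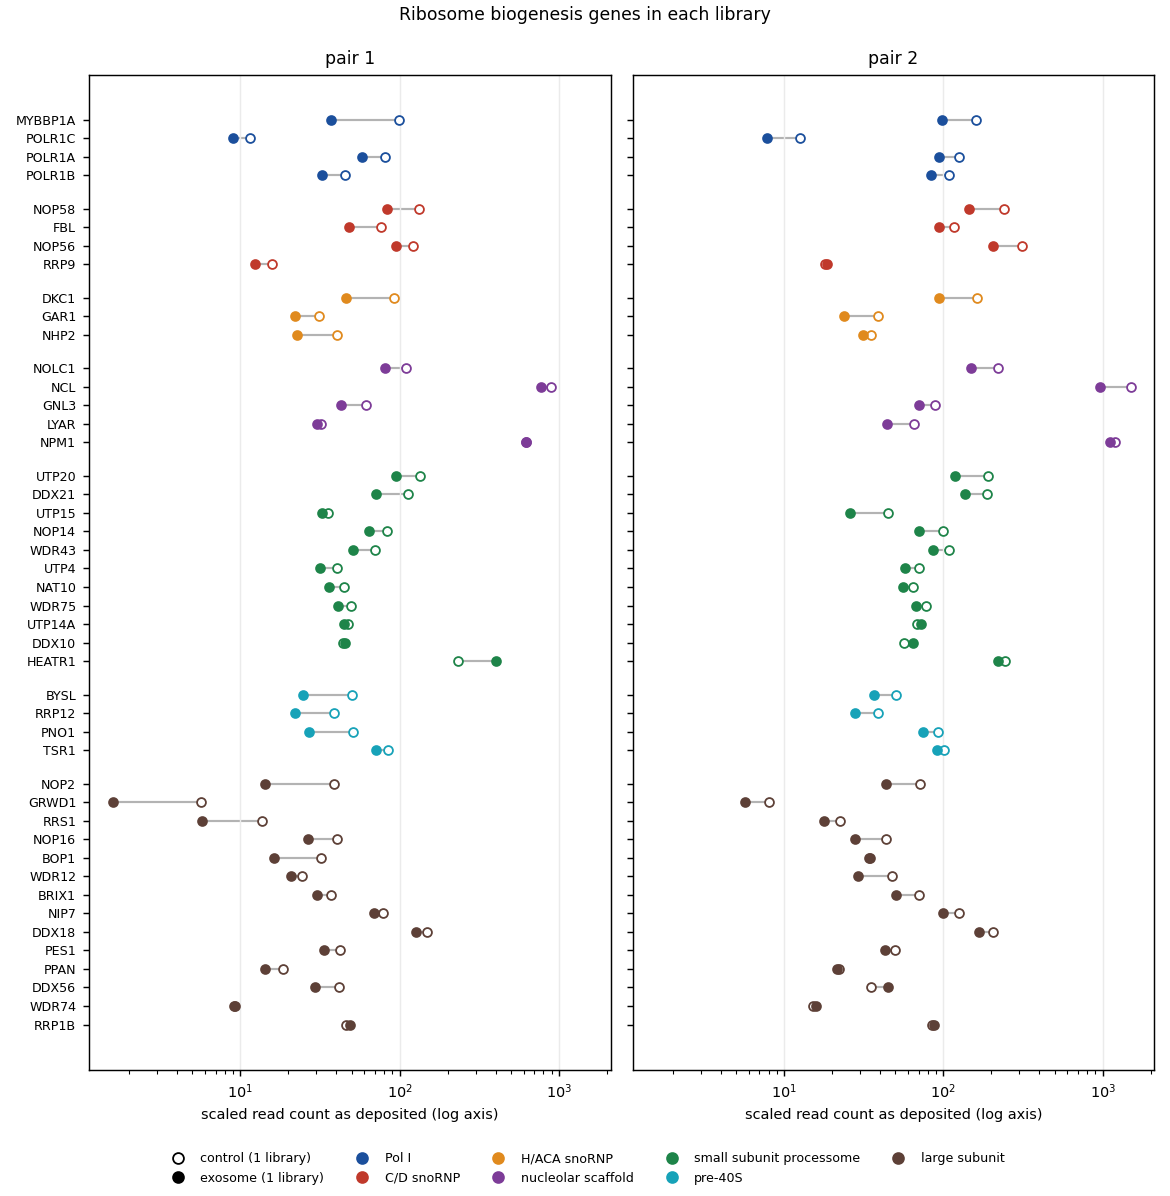
Scaled read count (log axis) of each of the 45 genes in the control library (open) and the exosome library (filled) of pair 1 and pair 2, coloured by role. Most filled points lie left of their open points in both panels, with HEATR1 in pair 1 (232 to 402) as the widest gap in the other direction.

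The number of single genes called varied with the fit. With only the 7122 genes of mean value 20 or more, limma called 6 of 39 members lower, namely MYBBP1A, NOP2, DKC1, NOP58, BYSL and RRP12, and 0 higher, beside 5.39% and 3.07% of all genes. With a pseudocount of 5 in place of 1 it called 5 of 45, the same genes without RRP12, and 0 higher, beside 3.49% and 1.73% of all genes. DESeq2 called 2, MYBBP1A (adjusted p = 0.0197) and DKC1 (adjusted p = 0.0359), as lower and 0 as higher, beside 0.915% and 0.53% of all genes. edgeR and limma-voom called 0 of the 45.

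The 4 RNA polymerase I genes of the set all had lower values in both pairs, with a median log2 fold of -0.45. Another 13 polymerase I genes, part of a wider list described below, had a median of 0.00. Of these 13, 5 were lower in both pairs and 4 higher, against 32.5% and 27.8% of all genes. MYBBP1A (ENSCAFG00000015266), a nucleolar MYB-binding protein that regulates polymerase I transcription, stood at 99.4 against 36.9 in pair 1 and at 160 against 97.8 in pair 2. Both exosome values were below both control values, and limma put the log2 fold at -1.06 ± 0.25 (SE, adjusted p = 0.0627), the furthest from 0 among the 45. The SE throughout is the moderated one of limma, which leans on the variance of all genes more than on these 2 pairs. POLR1A, the largest subunit, stood at 80.4 against 58.0 in pair 1 and at 125 against 94.0 in pair 2, and POLR1B, the other large catalytic subunit, at 45.3 against 32.6 and then 108 against 84.2. For both genes the exosome value of pair 2 exceeded the control value of pair 1, so the groups overlapped and the difference shows only within pairs. POLR1C, a subunit shared with RNA polymerase III, stood at 11.5 against 8.97 in pair 1 and at 12.6 against 7.86 in pair 2, without overlap between the groups (log2 fold -0.47 ± 0.23, limma adjusted p = 0.35).

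Among the box C/D proteins, whose particles mostly direct 2′-O-methylation of ribosomal RNA, 3 of 4 were lower in both pairs. NOP58 (ENSCAFG00000012448), a core protein of these particles, stood at 132 against 83.9 in pair 1 and at 242 against 146 in pair 2. Its log2 folds were close in the pairs, -0.65 and -0.73, and the joint one was -0.69 ± 0.23 (limma adjusted p = 0.154). Its paralogue and partner NOP56 stood at 121 against 94.4 in pair 1 and at 310 against 206 in pair 2. The levels of both core genes differed more between the dogs than between the arms, with all pair 2 values above all pair 1 values. FBL, the methyltransferase fibrillarin, stood at 76.0 against 47.8 and then 117 against 93.4 (log2 fold -0.49 ± 0.23, limma adjusted p = 0.33). RRP9, which binds the box C/D RNA that guides early cleavage, stood at 15.7 against 12.4 in pair 1 and at 18.0 against 18.5 in pair 2, a log2 fold of -0.14 ± 0.23 (limma adjusted p = 0.846).

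All 3 box H/ACA proteins, whose particles direct pseudouridylation and which also sit in telomerase, were lower in both pairs, with a median log2 fold of -0.57. DKC1 (ENSCAFG00000019620), the pseudouridine synthase dyskerin, stood at 92.4 against 46.0 in pair 1 and at 162 against 93.7 in pair 2. That is a ratio of 0.497 in pair 1 and 0.578 in pair 2, and a log2 fold of -0.89 ± 0.23 (limma adjusted p = 0.0772). GAR1 stood at 31.0 against 22.2 and then 38.6 against 23.9, and NHP2 at 40.5 against 22.7 and then 35.3 against 31.2. These last genes are partners of dyskerin, and in both the exosome values lay below both control values, although NHP2 changed little in pair 2 (log2 fold -0.17).

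The nucleolar scaffold genes were lower in both pairs in 5 of 5 cases, with a median log2 fold of -0.41. NCL, nucleolin, a major RNA-binding protein of the nucleolus, stood at 896 against 775 in pair 1 and at 1499 against 960 in pair 2 (log2 fold -0.43 ± 0.24, limma adjusted p = 0.419). NPM1, nucleophosmin, which shuttles between nucleolus and cytoplasm, stood at 625 in both libraries of pair 1 and at 1199 and 1110 in pair 2, a log2 fold of -0.06 ± 0.23 (limma adjusted p = 0.946). NCL thus had its wider gap in pair 2, and NPM1 had nearly the same value with and without exosomes. NOLC1, a chaperone of small nucleolar RNPs, stood at 110 against 81.5 and then 221 against 149 (log2 fold -0.50 ± 0.23, limma adjusted p = 0.308). GNL3, the GTPase nucleostemin, stood at 61.1 against 42.9 and then 88.4 against 70.6. LYAR, a nucleolar zinc finger protein, stood at 32.3 against 30.3 in pair 1 and at 65.5 against 44.3 in pair 2.

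**Figure D2:**
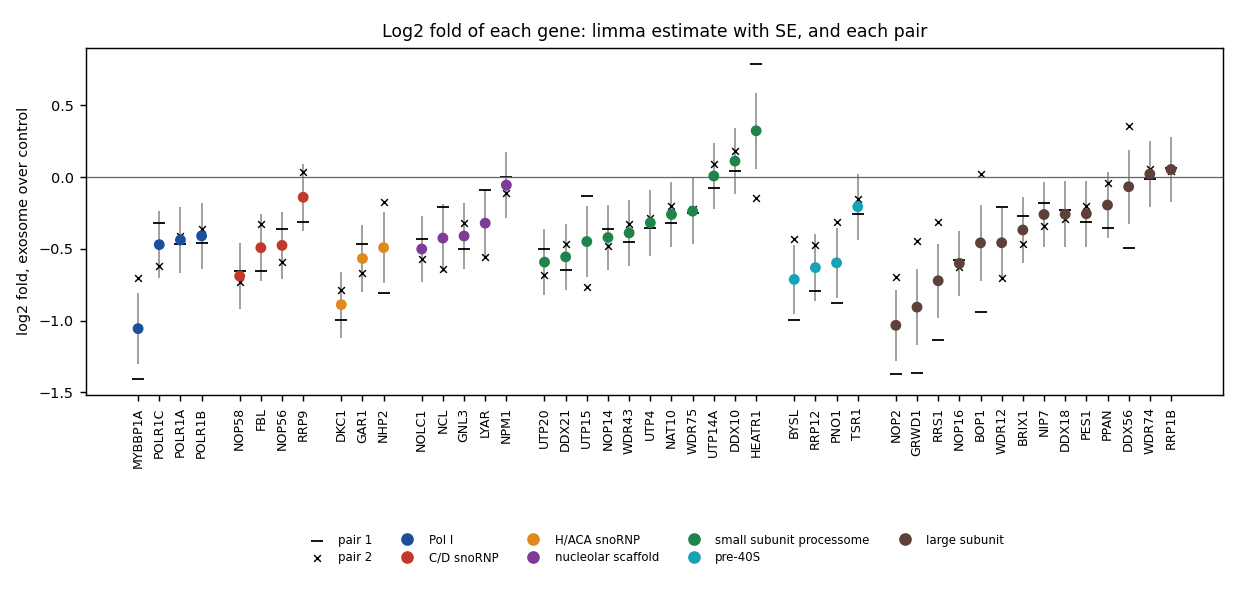
Log2 fold of each gene (exosome over control), as the limma estimate with its SE (coloured points and bars, 2 pairs) and in each pair alone (dash for pair 1, cross for pair 2). Estimates run from -1.06 for MYBBP1A to 0.32 for HEATR1. Of the 45, 14 lie below 0 at an unadjusted limma p under 0.05, against 9.96% of all genes, and none passed after adjustment.

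The small subunit processome group, which makes the first cuts of the precursor, was lower in both pairs in 8 of 11 genes, with a median log2 fold of -0.32. UTP20, a large scaffold of the processome, stood at 135 against 95.0 in pair 1 and at 192 against 119 in pair 2 (log2 fold -0.59 ± 0.23, limma adjusted p = 0.226), with both exosome values below both controls. DDX21, an RNA helicase that binds ribosomal and small nucleolar RNA, stood at 113 against 71.5 and then 188 against 136 (log2 fold -0.56 ± 0.23, limma adjusted p = 0.255). UTP15, a processome subunit, had a log2 fold of -0.13 in pair 1 and -0.77 in pair 2, at 35.6 against 32.4 and then 45.0 against 26.0. UTP4, WDR43, WDR75, NAT10 (an RNA acetyltransferase) and NOP14 had log2 folds between -0.24 and -0.42. UTP14A, a processome factor, stood at 47.5 against 45.0 and then 68.3 against 72.7, a log2 fold of 0.01 ± 0.23 (limma adjusted p = 0.992). The helicase gene DDX10 had higher values in both pairs, at 44.2 against 45.6 and then 56.6 against 64.2, a log2 fold of 0.11 ± 0.23. HEATR1, a processome scaffold also needed for polymerase I transcription, stood apart: 232 against 402 in pair 1 but 243 against 220 in pair 2 (log2 fold 0.32 ± 0.26, limma adjusted p = 0.633).

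The 4 late small subunit factors, which act on the precursor on its way to the cytoplasm, were lower in both pairs, with a median log2 fold of -0.83 in pair 1 and -0.37 in pair 2. BYSL, bystin, stood at 50.3 against 24.8 in pair 1 and at 50.1 against 36.9 in pair 2 (log2 fold -0.71 ± 0.24, limma adjusted p = 0.163). RRP12, an export and processing factor, stood at 38.8 against 22.0 and then 38.7 against 27.7 (log2 fold -0.63 ± 0.23, limma adjusted p = 0.204). In both genes the control values of the dogs were nearly equal and both exosome values lay below them. PNO1, an assembly factor, stood at 50.7 against 27.1 and then 93.0 against 74.5, and TSR1 at 85.1 against 70.9 and then 101 against 91.0 (log2 fold -0.21 ± 0.23, limma adjusted p = 0.745).

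Among large subunit factors 10 of 14 were lower in both pairs, 1 was higher in both, and the median log2 fold was -0.31. NOP2 (ENSCAFG00000015034), an RNA methyltransferase of the large subunit, stood at 38.5 against 14.3 in pair 1 and at 70.9 against 43.4 in pair 2. The log2 fold was -1.03 ± 0.25 (limma adjusted p = 0.0648), with an exosome over control ratio of 0.371 in pair 1 and 0.612 in pair 2. GRWD1, a histone-binding and ribosome assembly protein, stood at 5.65 against 1.58 and then 8.07 against 5.66, from 72, 16, 76 and 72 reads (log2 fold -0.91 ± 0.26, limma adjusted p = 0.107). RRS1 stood at 13.7 against 5.72 and then 22.5 against 17.9, and NOP16 at 40.2 against 26.6 and then 43.5 against 27.8. Both are assembly factors, and NOP16 had nearly the same log2 fold in the pairs, -0.58 and -0.63, without overlap of the groups.

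PES1, BOP1 and WDR12 form the PeBoW complex, which processes the large subunit precursor. Their joint log2 folds were -0.26 ± 0.23, -0.46 ± 0.27 and -0.46 ± 0.24, while the pairs differed for BOP1 and WDR12. BOP1 stood at 32.3 against 16.4 in pair 1 and at 34.0 against 34.4 in pair 2. WDR12 had its wider gap in pair 2, at 24.2 against 20.8 and then 47.8 against 28.9. PES1 stood at 42.0 against 33.6 and then 49.5 against 42.9. BRIX1, NIP7, DDX18 and PPAN, all assembly factors, had log2 folds of -0.37, -0.26, -0.26 and -0.20. The PPAN value is uncertain, because its identifier also carries the name P2RY11 and reads of both genes may count together. The helicase gene DDX56 was lower with exosomes in pair 1 and higher in pair 2 (41.6 against 29.3 and then 34.9 against 45.0). WDR74, at 9.26 against 9.17 and then 15.2 against 15.8, and RRP1B, at 46.3 against 48.5 and then 84.4 against 86.7, had log2 folds of 0.02 ± 0.23 and 0.05 ± 0.23.

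**Figure D3:**
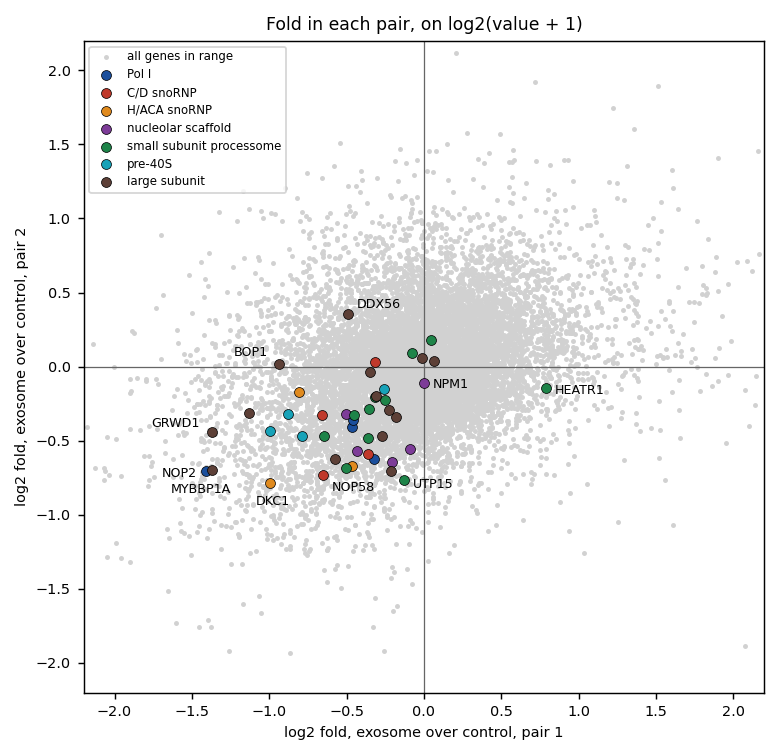
Log2 fold (exosome over control) of each gene in pair 1 (x axis) and pair 2 (y axis), with all genes whose folds fall within the axes in grey. The lower left quadrant holds 37 of the 45 genes, with HEATR1 and DDX56 the ones furthest outside it.

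The lowest folds lay further from 0 in pair 1, at -1.41 for MYBBP1A, than in pair 2, at -0.78 for DKC1. In pair 1, 13 of 45 were at least 1.5-fold lower on the log2 (value + 1) scale, against 14.3% of all genes, and in pair 2, 12 were, against 7.48%. On the upper side 1 gene in pair 1, HEATR1 (8.73% of all genes), and 0 in pair 2 (6.53%) reached 1.5-fold. The genes MYBBP1A, NOP2, DKC1 and NOP58 met this limit in both pairs, and 3.57% of all genes did so. Each of these counts sets 1 library against 1, so none has a test. Both exosome values were below both control values in 10 of the 45, against 14.3% of all genes, and above both in 0, against 12.9%. In the authors' deposited table of pair 1, 11 of the 45 passed their filter of 1.5-fold and p under 0.05 as lower (6.5% of all genes) and 1, HEATR1, as higher (5.25%). The authors' deposited table of pair 2 had 7 lower (2.98%) and 0 higher (2%), and DKC1, MYBBP1A, NOP2 and NOP58 were lower in both tables.

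The dogs differed in these genes as well. Control values were higher in pair 2 than in pair 1 for 41 of 45 genes, against 51% of all genes, with a median ratio of 1.54, beside 1.01 over all genes. For 33 genes both values of pair 2 exceeded both values of pair 1, against 28.3% of all genes, and 0 were the other way round, against 28.5%. BYSL, RRP12, NHP2 and DDX56 were the genes whose control value was lower in pair 2. For 22 of the 45 the controls of the dogs differed by more, on the log2 scale, than the arms did in either pair. Together the 45 genes took 0.431% of reads with PBS against 0.356% with exosomes in pair 1, and 0.674% against 0.541% in pair 2. Without NCL and NPM1 the shares were 0.274% against 0.215% and 0.404% against 0.322%. This difference between dogs has no test here, since dog, sex and the time in the column heads go together.

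A wider list of the pathway, with no gene in common with the 45, had smaller folds. Of its 117 measured genes 64 were lower in both pairs, against 32.5% of all genes, and 19 higher in both, against 27.8%. Their median log2 fold was -0.17. The limma test called 1 of the 117 (0.855%), as lower, beside 0.496% of all genes called lower and 0.248% called higher. This was MRTO4, a factor of large subunit assembly, with 19.9 against 6.71 in pair 1 and 35.9 against 17.7 in pair 2 (log2 fold -1.21 ± 0.24, limma adjusted p = 0.0403). It was not called by edgeR (adjusted p = 0.17). The helicase gene DDX51 (log2 fold -0.99 ± 0.23) and the methyltransferase gene FTSJ3 (-0.99 ± 0.23) came next, with limma adjusted p-values of 0.0627 and 0.0612. The highest folds belonged to EXOSC7, a subunit of the RNA exosome (0.55 ± 0.25), TTF1, which ends polymerase I transcription (0.55 ± 0.26), and the helicase gene DDX49 (0.36 ± 0.23), with limma adjusted p-values of 0.299 to 0.515. By role, the other polymerase I genes had a median log2 fold of 0.00 over 13 genes and the other small nucleolar RNP genes -0.21 over 10. The median was -0.18 over 40 small subunit genes (-0.08 in pair 1 and -0.25 in pair 2) and -0.20 over 41 large subunit genes. For 13 nuclear exosome genes it was -0.13, but the pairs differed in direction, with 0.10 in pair 1 and -0.23 in pair 2. Both exosome values were below both control values in 27 of the 117, beside 10 of the 45 and 14.3% of all genes. The difference between the lists was not tested.

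**Figure D4:**
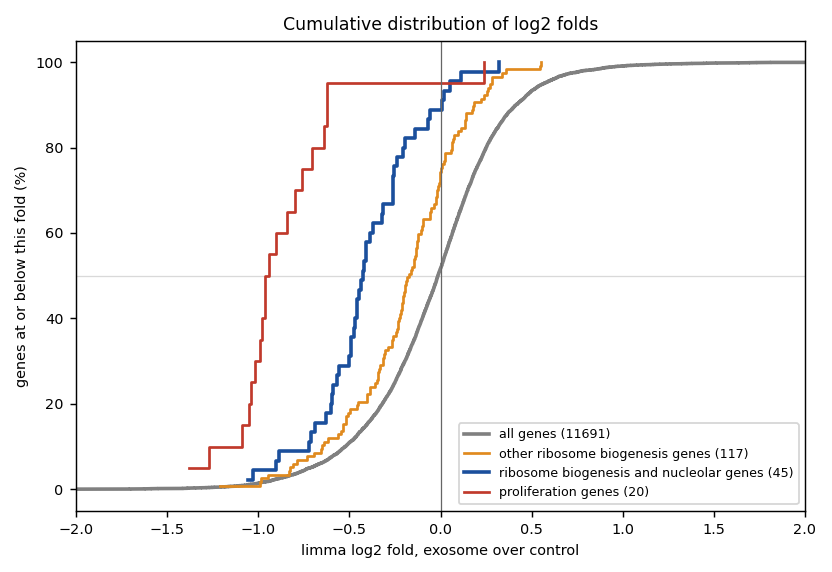
Cumulative share of genes (%) at or below each limma log2 fold (exosome over control) for all 11691 genes, the 45 ribosome biogenesis and nucleolar genes, 117 other genes of the pathway and 20 proliferation genes. The curves cross 50% at -0.01, -0.43, -0.17 and -0.95.

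Most proliferation genes and 4 of the 5 T cell markers also had lower values in both pairs, while the other gene lists were mixed. Of 20 proliferation genes 19 were lower in both pairs, against 32.5% of all genes, with a median log2 fold of -0.95. The main limma fit called 2 of the 20 lower, against 0.496% of all genes, and 0 higher. Limma called 17 lower among genes of mean value 20 or more (5.39% of all genes) and 17 with a pseudocount of 5 (3.49%). DESeq2 called 10 lower (0.915%), and edgeR with TMM called 0 genes at all. The summed value of the 20 was 2386 against 1351 in pair 1 and 5483 against 2767 in pair 2. It was thus also higher in the dog of pair 2. MCM5, a helicase subunit of replication, fell, with 50.7 against 19.8 and then 132 against 55.8 (log2 fold -1.27 ± 0.23, limma adjusted p = 0.0323). MYC stood at 127 against 23.3 in pair 1 and at 176 against 122 in pair 2 (log2 fold -1.46 ± 0.35, limma adjusted p = 0.0648). It had the lowest fold of the 9 measured MYC network genes, whose median log2 fold was -0.11 and whose highest was 0.71. Of these 9, 3 were lower in both pairs, against 32.5% of all genes, and 2 higher in both, against 27.8%. Of 3 measured NK cell markers 2 were lower in both pairs, and the list summed to 396 against 387 in pair 1 and 132 against 108 in pair 2. NCR1 stood at 33.2 against 10.6 and then 42.6 against 32.8, KLRB1 at 173 against 85.5 and then 19.6 against 9.99, and KIT, with opposite directions, at 190 against 291 and then 69.7 against 65.1. The 5 T cell markers summed to 1480 against 1160 in pair 1 and 2344 against 2207 in pair 2, and 4 of them were lower in both pairs. Among B cell markers CD79A stood at 896 against 852 and then 1072 against 1369, MS4A1 at 10.7 against 5.62 and then 4.46 against 3.62, and BLNK at 0.392 against 0.0986 and then 1.17 against 2.04. BLNK lay near the floor, since 0.0986 is the value of 1 read in the exosome library of pair 1. The 3 CD4 T cell markers summed to 163 against 230 and then 164 against 132, and the 2 myeloid markers, nearly all ITGAM, to 640 against 385 and then 53.4 against 73.8. The part of proliferation, MYC or the share of other cells in the values of the ribosome biogenesis genes was not tested.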

How the data were processed

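The submitters' processing notes name CanFam3.1 as build and list Trimmomatic 0.38 (trimming), HISAT2 2.1.0 (alignment) and featureCounts 1.6.0 (counting), beside FastQC and MultiQC; whether strand was used is not stated there. Per the file headers and the deposited log, DEGseq compared 1 exosome with 1 control library per table, after 30951 genes were reduced to 11838 and 89 (pair 1) or 58 (pair 2) outlier genes were removed. The gene columns are a signal deposited by the authors, read counts divided by 1 factor per library. Their mean column is a score deposited by the authors, and was not used. The log2 fold changes and the p-values deposited by the authors set 1 library against 1. The log gives gene numbers (unit other) deposited by the authors.

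All values (100%, tolerance 0.001) were whole multiples of the column minimum, so reads were recovered; the authors' factors lay close to TMM factors (0.989 to 1.01 of them), and both tables were used together. Column heads name the arm and a time but no dog, so the pair is the table; the table names give 1 dog each. The main test was limma 3.58.1 in R 4.3.3 on log2(value + 1), which understates changes of low genes, with the pair as a block (1 residual and 11.4 prior degrees of freedom), fitted to all 11691 shared genes and adjusted by Benjamini-Hochberg at 0.05. Deviations of paired libraries from their group means correlated at 0.818, equal for both pairs by construction. Count alternatives on the recovered reads were edgeR 4.0.16 (quasi-likelihood), DESeq2 1.42.0 and limma-voom. Scripts were tested on simulated counts.

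The members and all gene lists were chosen with earlier results of these data known. Every member could be named; fuller statistics went to the members with the 2 largest and the smallest absolute log2 fold of each role, and of the wider list to called genes and the 3 highest and 3 lowest. Other values were named after they were seen. One identifier shared by 2 wider-list genes was counted once. No sequences or positions are printed, since no sequence table or genome was used. One marker gene and the sum of its list are not reported here.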

Additional observations from a re-analysis of the deposited data

Results flagged for a closer look

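In 6 of the 45 genes (13.3%) the exosome library lay on opposite sides of its control in the dogs, against 39.7% of all genes. With 1 library per arm and dog, the difference between the dogs was not tested. The fold of pair 2 minus that of pair 1, on the log2 scale, was 0.96 for BOP1 and 0.85 for DDX56, both lower with exosomes in pair 1 and higher in pair 2. It was -0.94 for HEATR1, which was higher in pair 1 and lower in pair 2. It was 0.35 for RRP9, which had log2 folds of -0.31 and 0.03. It was 0.17 for UTP14A and 0.068 for WDR74, whose folds were within 0.1 of 0 in both pairs.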

How the results depend on the processing

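The count of genes lower in both pairs was 33 of 39 to 37 of 45 under the pseudocounts, the mean value filter and the rescalings, and 42 and 38 of 45 in pair 1 and pair 2 taken alone, an alternative added after seeing the data. The median log2 fold of the 45 stayed below 0 in all fits run: it was -0.39 with a pseudocount of 5, -0.40 with values rescaled to equal totals, -0.41 with upper-quartile scaling, and -0.69 to -0.058 when 1 library was left out without the pair block. Since the dogs differ in level, those last fits mix dog and arm: the median was -0.058 without the exosome library and -0.67 without the control library of pair 1, and -0.12 without the control and -0.69 without the exosome library of pair 2.

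Calls of single genes depend strongly on the fit. Over all genes 87 were called, against 603 in genes of mean value 20 or more, 610 with a pseudocount of 5, 169 by DESeq2, 14 by edgeR with DESeq2 size factors, and 0 by edgeR with TMM, by limma-voom, with a pseudocount of 0.1, under both rescalings and without the replicate block. Of the 45, called counts were 6, 5 and 2 in the first 3 of these and 0 in the others, and 0 with no replicate block (0 at an unadjusted p under 0.05). Of the wider list 1 of 117 was called, against 11 of 98, 10 of 117 and 1 of 117, and 0 in the others. In those 3 fits 5.39%, 3.49% and 0.915% of all genes were called lower. Each leave-one-out fit called 0 genes over all, in the 45 and in the wider list. The cause of these differences was not tested.

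No fit with all 4 libraries turned the direction of any of the 45. With 1 library left out, 21 genes changed sign in at least 1 fit, at adjusted p-values of 0.924 or more. Their log2 folds ran from -0.97 to 0.056 for BOP1, -0.82 to 0.081 for BRIX1, -0.13 to 0.35 for DDX10, -0.37 to 0.23 for DDX56, -0.11 to 0.76 for HEATR1, -0.82 to 0.18 for LYAR, -0.58 to 0.055 for NAT10, -0.60 to 0.079 for NIP7, -1.15 to 0.20 for NOP56, -0.53 to 0.41 for NPM1, -1.31 to 0.11 for PNO1, -1.08 to 0.26 for POLR1B, -0.47 to 0.082 for PPAN, -0.37 to 0.48 for RRP1B, -0.41 to 0.13 for RRP9, -1.47 to 0.025 for RRS1, -0.33 to 0.35 for UTP14A, -0.74 to 0.10 for UTP4, -0.93 to 0.017 for WDR12, -0.34 to 0.38 for WDR74 and -0.58 to 0.11 for WDR75. Depth limits GRWD1 most, at 16 to 76 reads.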
